A study of Mus musculus with 4 samples.

Results

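The collagen genes were taken as every row of the count tables whose symbol reads Col, a number, the letter a and a number, with nothing after it. This rule found 44 of 32285 genes. Collagens are triple-helical proteins of the extracellular matrix, assembled from alpha chains, and each kind of chain has its own gene. Fibrillar collagens carry tension in connective tissue, type IV forms the mesh of basement membranes, and the remaining families attach to fibrils, link cells to matrix or span the cell membrane. In the brain, collagens are best known in the basement membrane of blood vessels, which endothelium, pericytes and smooth muscle share, and in the meninges, whose fibroblasts make fibrils.

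The libraries came from C57BL/6 mice of 93 weeks (old) or 8 weeks (young). Tumour mice received 1000 CT2A-GFP-luc cells, a mouse glioblastoma line carrying a fluorescent and a luciferase reporter, in 1 side of the brain, and sham mice received PBS. After 2 weeks, cells were dissociated from the opposite, uninjected side and counted by droplet-based 3' single-cell RNA sequencing. The 4 groups were old tumour, old sham, young tumour and young sham, with 1 library each, and the number of mice in a library is not given in the sources used here. No test between groups was run for that reason, and all intervals below cover counting error only: an exact 95% interval for a level or a share, and an exact conditional 95% interval for a ratio of 2 libraries.

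The tables held 62726818 to 76652484 UMIs per library. After cell filters and removal of doublets, 9829 cells remained in old tumour, 9529 in old sham, 10461 in young tumour and 10571 in young sham. Collagen molecules, counted as unique molecular identifiers (UMIs), numbered 33693 in old tumour, 24485 in old sham, 41873 in young tumour and 28901 in young sham. They made up 0.0521% of all UMIs in old tumour, 0.0453% in old sham, 0.0666% in young tumour and 0.0532% in young sham. The young tumour library stood apart from the others: it held 431 cells with at least 2 UMIs of Hmga2, an oncofetal chromatin protein, against 0 in old tumour, 1 in old sham and 0 in young sham. Those 431 cells carried 51.0% of its collagen UMIs (50.5 to 51.5%), beside 20.6% of all its UMIs. Without them collagens made up 0.0411% of its UMIs. A count of 0 cells allowed a share of up to 0.0305% of cells with at least 2 Hmga2 UMIs in old tumour and 0.0284% in young sham. Any 2 libraries shared 19 to 38 cell barcodes, at most 0.399% of the smaller one.

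All 44 collagens were detected and 43 were detected in every library. UMI totals over the libraries ran from 7 for Col10a1, a network collagen of growth cartilage, to 21069 for Col4a1, and 23 members had at least 1000. The members fall into 11 fibrillar collagens, 6 chains of collagen IV, 3 short-chain network collagens, 6 chains of collagen VI, 9 collagens associated with fibrils (FACIT), 2 multiplexins of vessel basement membranes, 4 transmembrane collagens and 3 others. Of the 44, 4 had under 50 UMIs (Col10a1, Col19a1, Col22a1 and Col24a1), and 3 overlap another gene of the table on the same strand (Col20a1, Col24a1 and Col26a1), so that part of their UMIs may belong to the neighbour.

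Type IV is the collagen with most UMIs, and its chains are encoded in pairs that point away from each other. On GRCm38 (GENCODE M21), Col4a1 lies at chr8:11198423-11312826 on the minus strand and Col4a2 at chr8:11312805-11449287 on the plus strand, with annotated starts 21 bases apart. The starts of Col4a3 and Col4a4 lie 72 bases apart on chromosome 1, and those of Col4a5 and Col4a6 lie 1309 bases apart on X. The RefSeq promoter windows of Col4a1 (chr8:11312777-11313076, minus strand) and Col4a2 (chr8:11312555-11312854, plus strand) each run from 250 bases before to 50 after the start on GRCm38.p6. They are shown because the levels of both genes differed together between libraries in the endothelial-like cells below. Capitals mark the 78 bases that lie in both windows, read in opposite directions.

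Col4a1: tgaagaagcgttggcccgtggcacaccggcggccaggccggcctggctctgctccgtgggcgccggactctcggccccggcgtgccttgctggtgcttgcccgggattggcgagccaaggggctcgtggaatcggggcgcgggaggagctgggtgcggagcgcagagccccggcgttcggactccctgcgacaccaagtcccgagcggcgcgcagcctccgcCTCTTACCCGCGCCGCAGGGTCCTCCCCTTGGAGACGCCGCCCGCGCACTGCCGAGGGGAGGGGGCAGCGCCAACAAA

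Col4a2: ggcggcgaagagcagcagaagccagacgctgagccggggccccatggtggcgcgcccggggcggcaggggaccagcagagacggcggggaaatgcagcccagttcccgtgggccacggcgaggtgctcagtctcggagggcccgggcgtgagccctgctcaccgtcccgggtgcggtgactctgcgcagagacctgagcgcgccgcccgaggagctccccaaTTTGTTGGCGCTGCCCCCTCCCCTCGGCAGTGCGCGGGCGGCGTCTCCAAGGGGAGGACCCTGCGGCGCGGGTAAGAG

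The windows of Col3a1 (chr1:45311288-45311587, plus strand) and Col1a2 (chr6:4505368-4505667, plus strand) are shown because these 2 fibrillar genes, usually expressed together by fibroblasts, parted in the cells below. Capitals mark CCAAT and TATAAA on either strand.

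Col3a1: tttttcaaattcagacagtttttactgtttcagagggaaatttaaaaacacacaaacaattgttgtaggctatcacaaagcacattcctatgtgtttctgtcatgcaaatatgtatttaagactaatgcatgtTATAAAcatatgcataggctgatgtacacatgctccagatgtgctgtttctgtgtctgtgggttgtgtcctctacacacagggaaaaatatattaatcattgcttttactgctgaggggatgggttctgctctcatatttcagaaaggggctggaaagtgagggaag

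Col1a2: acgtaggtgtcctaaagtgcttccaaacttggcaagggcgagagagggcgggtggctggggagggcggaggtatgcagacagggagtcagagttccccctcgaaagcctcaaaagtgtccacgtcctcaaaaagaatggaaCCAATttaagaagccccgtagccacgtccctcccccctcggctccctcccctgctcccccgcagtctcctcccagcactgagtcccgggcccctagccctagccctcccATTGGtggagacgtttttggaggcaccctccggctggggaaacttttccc

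Across 38 RefSeq windows that matched 35 of the 44 members, GGGCGG occurred in 60.5%, CCAAT in 34.2% and TATAAA in 13.2%, each searched on both strands. Among all 32851 windows of the same length the shares were 35.7%, 37.4% and 13.6%. Col4a1 had 1 GGGCGG and 1 CCAAT, Col4a2 had 3 and 1, Col1a2 had 2 and 2, and Col3a1 had none of either and 1 TATAAA. These are matches of letters and say nothing of what binds there.

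Cell types were gated by markers, since no cell annotation was used: a cell needed at least 3 of 8 markers of a type, and at least 2 times as many as of any other list (pericyte against smooth muscle: more). No collagen was a marker, and gated cells are called by the type with "-like". The fibroblast, pericyte, smooth muscle, endothelial and microglia gates each had all 8 of their own markers detected in the gated cells, although Dpt, a fibroblast marker, had 1 UMI in all fibroblast-like cells together. Cells that passed no gate held 44.0% of collagen UMIs in old tumour, 44.0% in old sham, 20.9% in young tumour and 51.3% in young sham, so the gated types describe only part of each library's collagen.

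**Figure D1:**
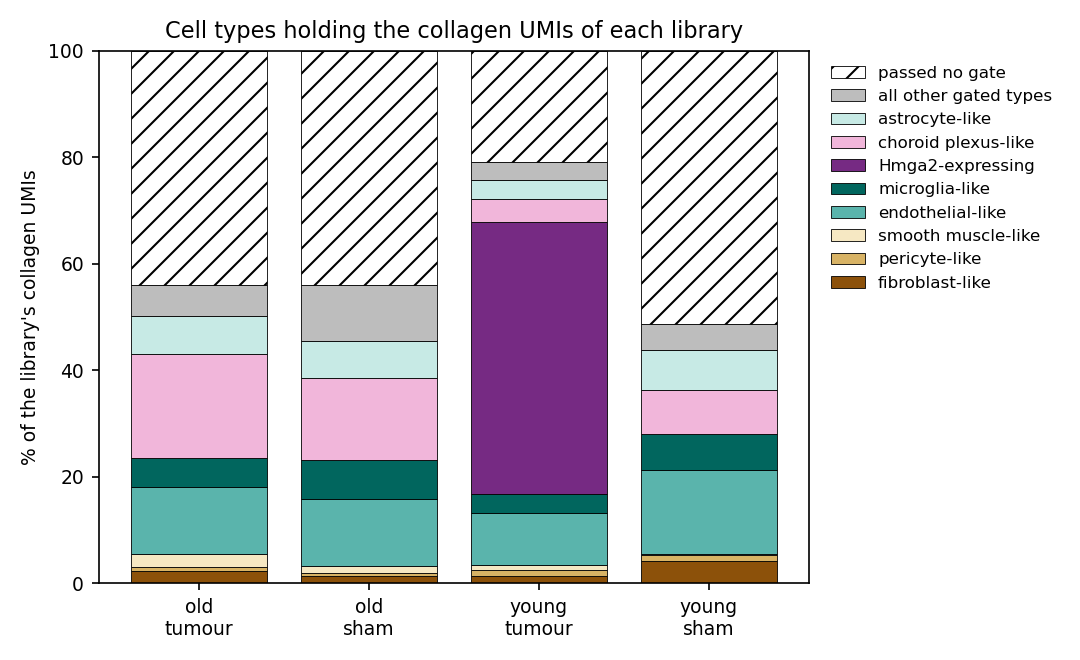
Percent of each library's collagen UMIs (vertical axis) held by each gated cell type, stacked per library. Hmga2-expressing cells hold 51.0% in young tumour, where there are 431 of them with 20.6% of all UMIs. Endothelial-like cells hold 9.93 to 15.7%.

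Ranked by level over all libraries, in UMIs per 1000000 UMIs of the cell type (CPM), 14 of the 40 members with at least 50 UMIs were highest in fibroblast-like cells: Col1a1, Col1a2, Col4a5, Col4a6, Col5a2, Col6a1, Col6a2, Col6a3, Col8a2, Col12a1, Col13a1, Col14a1, Col15a1 and Col26a1. Another 7 were highest in pericyte-like cells: Col4a1, Col4a2, Col4a3, Col4a4, Col5a3, Col7a1 and Col28a1. The Hmga2-expressing cells led for 4, Col3a1, Col5a1, Col6a4 and Col18a1, and endothelial-like cells for 1, Col6a6. The others were highest elsewhere, among them 5 in olfactory ensheathing-like cells (Col9a2, Col11a1, Col16a1, Col23a1 and Col27a1), 3 in choroid plexus-like cells (Col8a1, Col9a3 and Col17a1) and 2 in oligodendrocyte precursor-like cells (Col9a1 and Col11a2). Col8a1 was higher in smooth muscle-like than in choroid plexus-like cells in old tumour, at 142 CPM against 124, and in fibroblast-like cells in young sham, at 119 CPM against 77.0. No cell of either sham library passed the olfactory ensheathing gate, so those 5 places rest on old tumour and young tumour. In old tumour Col27a1 was lower there than in microglia-like cells, at 68.8 CPM against 96.4. In young tumour Col9a2 was lower there than in fibroblast-like cells, at 52.1 CPM against 91.8. In old sham, fibroblast-like cells held 0 UMIs of Col14a1 and of Col6a3. Endothelial-like cells there had Col14a1 at 28.2 CPM, and microglia-like cells had Col6a3 at 22.7 CPM. In old tumour Col14a1 stood at 14.0 CPM in fibroblast-like cells against 26.6 in endothelial-like cells. In both young libraries it was higher in fibroblast-like cells. Some of these places rest on few molecules. Col14a1 led through 11 UMIs in fibroblast-like cells, Col26a1 through 14 and Col6a3 through 19, and Col28a1 through 5 in pericyte-like cells. Col6a4 stood at 3.01 CPM in Hmga2-expressing cells through 39 UMIs and at 2.70 CPM in ependyma-like cells through 10. Without those 39 UMIs it would fall under the minimum of 50. Col20a1 was highest in erythroid-like cells through 1 UMI. In olfactory ensheathing-like cells Col27a1 led through 28 UMIs, Col9a2 through 33 and Col16a1 through 23. UMIs count molecules at the 3' end, so levels of different genes are compared without scaling by length.

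**Figure D2:**
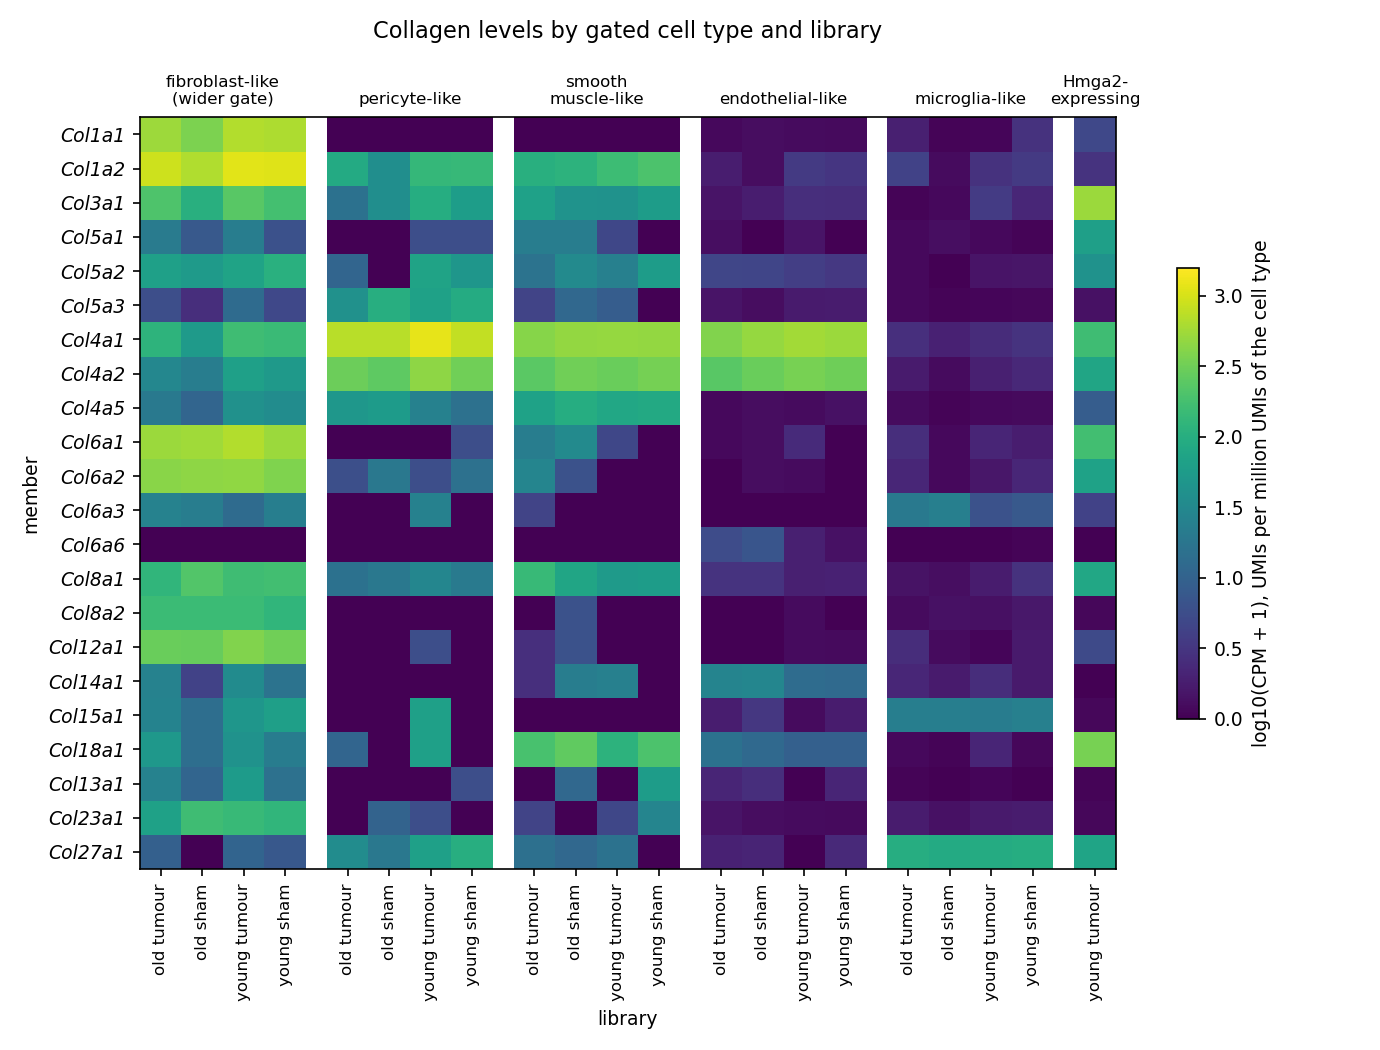
Level of 22 members (rows) in each library of 6 gated cell types (columns), as log10(CPM + 1). Type I chains stand out in fibroblast-like cells, Col4a1 and Col4a2 in the 3 vascular types, Col27a1 in microglia-like cells, and Col3a1 and Col18a1 in Hmga2-expressing cells.

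Endothelial-like cells were the most numerous vascular type, with 946 cells in old tumour, 649 in old sham, 961 in young tumour and 1001 in young sham. Type IV collagen made up 91.0% of their collagen UMIs in old tumour, 92.4% in old sham, 95.9% in young tumour and 95.8% in young sham. Col4a1, which encodes the alpha-1 chain of the basement membrane network, stood at 394 CPM in old tumour, 487 in old sham, 568 in young tumour and 529 in young sham. Its partner Col4a2 stood at 235 CPM in old tumour, 293 in old sham, 345 in young tumour and 312 in young sham. For both chains, old tumour was the lowest library and young tumour the highest, and none of the 95% counting intervals of old tumour reached those of another library.

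The summed collagen level of endothelial-like cells was 694 CPM in old tumour, 847 in old sham, 956 in young tumour and 883 in young sham. The ratio of old tumour to young tumour was 0.726 (0.696 to 0.758), that of old tumour to old sham 0.820 (0.783 to 0.859), that of young tumour to young sham 1.08 (1.04 to 1.13) and that of old sham to young sham 0.959 (0.916 to 1.00). None of the 4 ratios passed 2-fold. In cells thinned to 1000 UMIs each, Col4a1 was seen in 28.8% of old tumour, 35.1% of old sham, 40.6% of young tumour and 37.9% of young sham cells, the same order as the CPM. Without thinning the shares were 71.8% in old tumour, 73.5% in old sham, 74.9% in young tumour and 76.5% in young sham, at median depths of 4678 UMIs in old tumour, 4022 in old sham, 3300 in young tumour and 3817 in young sham. In T and NK-like cells of old tumour, which should lack the gene, 0 of 153 thinned cells had a Col4a1 UMI, which allows up to 1.96%, and in those of young tumour 0.680% had one.

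The UMI ratio of Col4a1 to Col4a2 in endothelial-like cells was 1.68 in old tumour (1.57 to 1.80), 1.66 in old sham (1.54 to 1.80), 1.65 in young tumour (1.54 to 1.76) and 1.69 in young sham (1.59 to 1.80). The 4 intervals overlapped, although the levels of both genes differed between libraries. The ratio was 2.40 to 2.79 in pericyte-like cells, 1.42 to 1.73 in smooth muscle-like cells and 2.10 (1.94 to 2.27) in Hmga2-expressing cells of young tumour. In young tumour and young sham the pericyte-like intervals, 2.08 to 3.40 and 1.93 to 3.46, lay above the endothelial-like ones, while in old tumour and old sham the intervals of the 2 types overlapped.

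**Figure D3:**
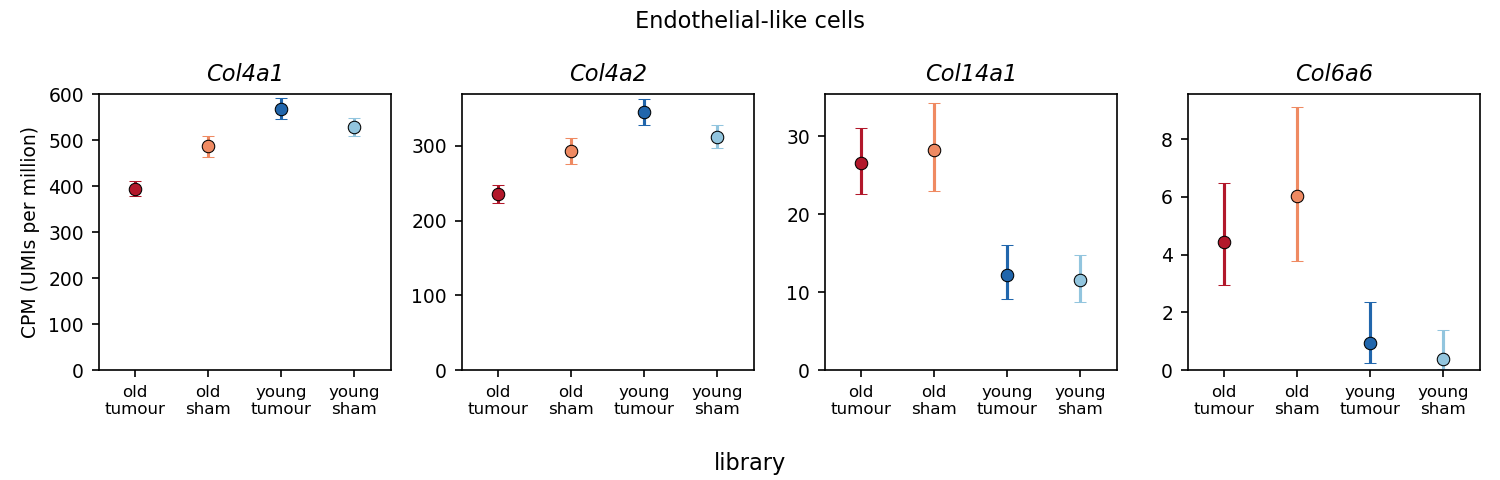
Level in CPM (vertical axis) of 4 collagens in endothelial-like cells of each library, as points with exact 95% counting intervals. Col4a1 and Col4a2 are lowest in old tumour, and Col14a1 and Col6a6 are higher in both old libraries than in both young ones.

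Of the collagens with at least 20 UMIs over both libraries of a comparison, 2 of 8 in endothelial-like cells were past 2-fold for old tumour over young tumour, where 4.32% of all measured genes were past it in either direction. The same 2 of 8 were past it for old sham over young sham (5.46% of all genes). None of 7 was past it for old tumour over old sham (2.53% of all genes) and none of 8 for young tumour over young sham (2.26%). The 2 members were Col14a1 and Col6a6, and both were higher in old mice.

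Col14a1 (chr15:55307750-55520803, plus strand) encodes a FACIT collagen that binds the surface of fibrils. It stood at 26.6 CPM in old tumour (161 UMIs), 28.2 in old sham (103), 12.2 in young tumour (53) and 11.5 in young sham (59). The old and young libraries did not overlap in their intervals. The ratio was 2.18 for old tumour over young tumour (1.59 to 3.03) and 2.47 for old sham over young sham (1.77 to 3.46), and 2.45 for both without the 5 cells with most Col14a1 UMIs in each library. In thinned cells the shares lay closer together, at 2.77% in old tumour, 2.48% in old sham, 1.79% in young tumour and 1.41% in young sham. Their intervals overlapped.

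Col6a6 (chr9:105687809-105828160, minus strand) encodes a chain of collagen VI, the beaded filament that links cells to matrix. It had 27 UMIs in old tumour (4.45 CPM), 22 in old sham (6.03), 4 in young tumour (0.920) and 2 in young sham (0.388). The ratio was 4.84 for old tumour over young tumour (1.69 to 19.0) and 15.5 for old sham over young sham (3.82 to 136). Few cells carried these molecules: 13 in old tumour, 12 in old sham, 4 in young tumour and 2 in young sham. Of all Col6a6 UMIs in the series, 77.5% were in endothelial-like cells, and the gene was among the 10 that stood highest by fold in them. In thinned cells Col6a6 was too rare to compare, with 2 cells in old tumour, 0 in old sham, 2 in young tumour and 0 in young sham.

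Among markers of other types, the neuron list differed with age in endothelial-like cells: its 8 genes, all detected, summed to 321 CPM in old tumour, 334 in old sham, 101 in young tumour and 89.5 in young sham. Its part in the Col14a1 and Col6a6 levels was not tested. The fibroblast list summed to 5.44 CPM in old tumour, 4.11 in old sham, 7.13 in young tumour and 6.21 in young sham, with Dpt at 0, against 6615 to 8703 CPM in fibroblast-like cells.

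Genes that make and read collagen were looked up in 5 lists. In endothelial-like cells, 17 of the 19 genes of collagen modification and folding were measured, and 1 was past 2-fold in each age comparison, beside 4.32% of all measured genes for old tumour over young tumour and 5.46% for old sham over young sham. That gene was P4ha2, a prolyl 4-hydroxylase subunit that stabilises the collagen helix, at 33.7 CPM in old tumour, 25.8 in old sham, 14.5 in young tumour and 9.90 in young sham. Its ratio was 2.32 for old tumour over young tumour (1.74 to 3.13) and 2.60 for old sham over young sham (1.83 to 3.74). Of 5 measured collagen receptors of 11, Ddr1, a receptor tyrosine kinase for collagen, was past 2-fold in both age comparisons: 7.42 CPM in old tumour, 5.76 in old sham, 2.53 in young tumour and 2.13 in young sham. None of the 17 folding genes or the 5 receptors was past 2-fold between tumour and sham at either age. Of all measured genes, 2.53% were past it for old tumour over old sham and 2.26% for young tumour over young sham. With shares this low, a count of none says little about these genes. Of the remaining lists, 2 of 14 genes of processing and crosslinking, 4 of 13 of breakdown and at most 15 of 23 of other matrix were measured. No gene of them was past 2-fold in the same direction in both comparisons of age or of tumour. The share of all measured genes past it in both is not given here. The median log2 ratio of the folding genes was -0.03 for old tumour over young tumour and 0.08 for old sham over young sham, beside -0.01 and 0.04 over all measured genes.

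Pericyte-like cells, the mural cells of capillaries, numbered 105 in old tumour, 67 in old sham, 121 in young tumour and 125 in young sham. Type IV was again the main collagen, with 81.7% of their collagen UMIs in old tumour, 78.5% in old sham, 73.0% in young tumour and 68.8% in young sham. Col4a1 stood at 727 CPM in old tumour, 709 in old sham, 1189 in young tumour and 815 in young sham. Col4a2 stood at 302 CPM in old tumour, 254 in old sham, 449 in young tumour and 317 in young sham. Young tumour was highest for both chains, but 1 cell held 163 of the 512 collagen UMIs of that library's pericyte-like cells, 84 of them Col4a1, 31 Col4a2 and 13 Col15a1. All Col15a1 UMIs of pericyte-like cells were in that cell.

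The summed collagen level of pericyte-like cells was 1493 CPM in old tumour, 1435 in old sham, 2446 in young tumour and 1730 in young sham. The ratio of young tumour to young sham was 1.41 (1.23 to 1.62), and 1.06 (0.910 to 1.23) without the cell with most collagen UMIs in each library. That of old tumour to young tumour was 0.610 (0.528 to 0.705), and 0.808 (0.689 to 0.947) without those cells. That of old tumour to old sham was 1.04 (0.856 to 1.27) and that of old sham to young sham 0.830 (0.684 to 1.00). In young sham, 2737 of the 2760 UMIs of neutrophil markers in pericyte-like cells were in 1 cell, and the neutrophil list summed to 13079 CPM there, against 48.8 in old tumour, 0 in old sham and 14.3 in young tumour.

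Among measured collagens, 1 of 4 was past 2-fold in pericyte-like cells for old tumour over old sham (8.75% of all genes), 0 of 7 for young tumour over young sham (8.57%), 2 of 5 for old sham over young sham (10.4%) and 1 of 8 for old tumour over young tumour (7.41%). Col1a2, a chain of type I collagen, gave the first of these with 18 UMIs in old tumour and 4 in old sham. Col27a1, a fibrillar collagen of cartilage, stood at 34.1 CPM in old tumour, 18.2 in old sham, 62.1 in young tumour and 99.5 in young sham, from at most 21 UMIs in a library. Col3a1 stood at 14.6 CPM in old tumour, 36.3 in old sham, 95.5 in young tumour and 56.9 in young sham. Col5a3, a chain of type V, stood at 39.0 CPM in old tumour, 99.9 in old sham, 66.9 in young tumour and 90.0 in young sham. No member passed 2-fold in the same direction in both comparisons of age or of tumour.

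Smooth muscle-like cells numbered 90 in old tumour, 37 in old sham, 50 in young tumour and 9 in young sham, so every value of young sham rests on 9 cells. Type IV made up 55.2% of their collagen UMIs in old tumour, 59.2% in old sham, 65.5% in young tumour and 58.2% in young sham. Col4a1 stood at 416 CPM in old tumour, 474 in old sham, 487 in young tumour and 476 in young sham. Col4a2 stood at 241 CPM in old tumour, 319 in old sham, 293 in young tumour and 336 in young sham. Col4a5, whose product joins a second type IV network, stood at 69.3 CPM in old tumour, 95.8 in old sham, 79.9 in young tumour and 84.0 in young sham. The counting intervals of the 4 libraries overlapped for each of these 3 chains.

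Col18a1, the multiplexin whose cleaved end is endostatin, stood at 187 CPM in smooth muscle-like cells of old tumour, 261 in old sham, 114 in young tumour and 196 in young sham, against 8.28 to 14.7 CPM in endothelial-like cells. Col8a1, a network collagen of vessel walls, stood at 142 CPM in old tumour, 74.5 in old sham, 53.3 in young tumour and 56.0 in young sham, from 82 UMIs in old tumour, 14 in old sham, 14 in young tumour and 2 in young sham. Old tumour was the highest library, with a ratio to young tumour of 2.67 (1.5 to 5.09) and to old sham of 1.91 (1.07 to 3.64). Past 2-fold were 0 of 8 measured collagens for old tumour over old sham (8.46% of all genes), 0 of 5 for young tumour over young sham (16.7%), 0 of 5 for old sham over young sham (17.4%) and 2 of 8, Col8a1 and Col4a6, for old tumour over young tumour (8.32%). The summed level was 1394 CPM in old tumour, 1591 in old sham, 1335 in young tumour and 1539 in young sham. The intervals of the ratios for all 4 comparisons included 1.

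The type I chains parted in mural cells. Over all libraries, 418 pericyte-like cells held 79 UMIs of Col1a2 and 0 of Col1a1, and 186 smooth muscle-like cells held 129 of Col1a2 and 0 of Col1a1. With the 0 of Col1a1 set to 3 UMIs, the ratio was 26.3 in pericyte-like and 43.0 in smooth muscle-like cells. Counting error in Col1a2 is left out of both ratios, so neither is a lower limit. In single libraries the exact conditional intervals began at 7.10 in young tumour and 7.37 in young sham for pericyte-like cells. For smooth muscle-like cells they began at 15.8 in old tumour, 5.21 in old sham and 10.6 in young tumour. Intervals of the other libraries are not given here. In fibroblast-like cells the UMI ratio of Col1a2 to Col1a1 was 1.46 in old tumour, 1.24 in old sham, 1.73 in young tumour and 1.59 in young sham.

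**Figure D4:**
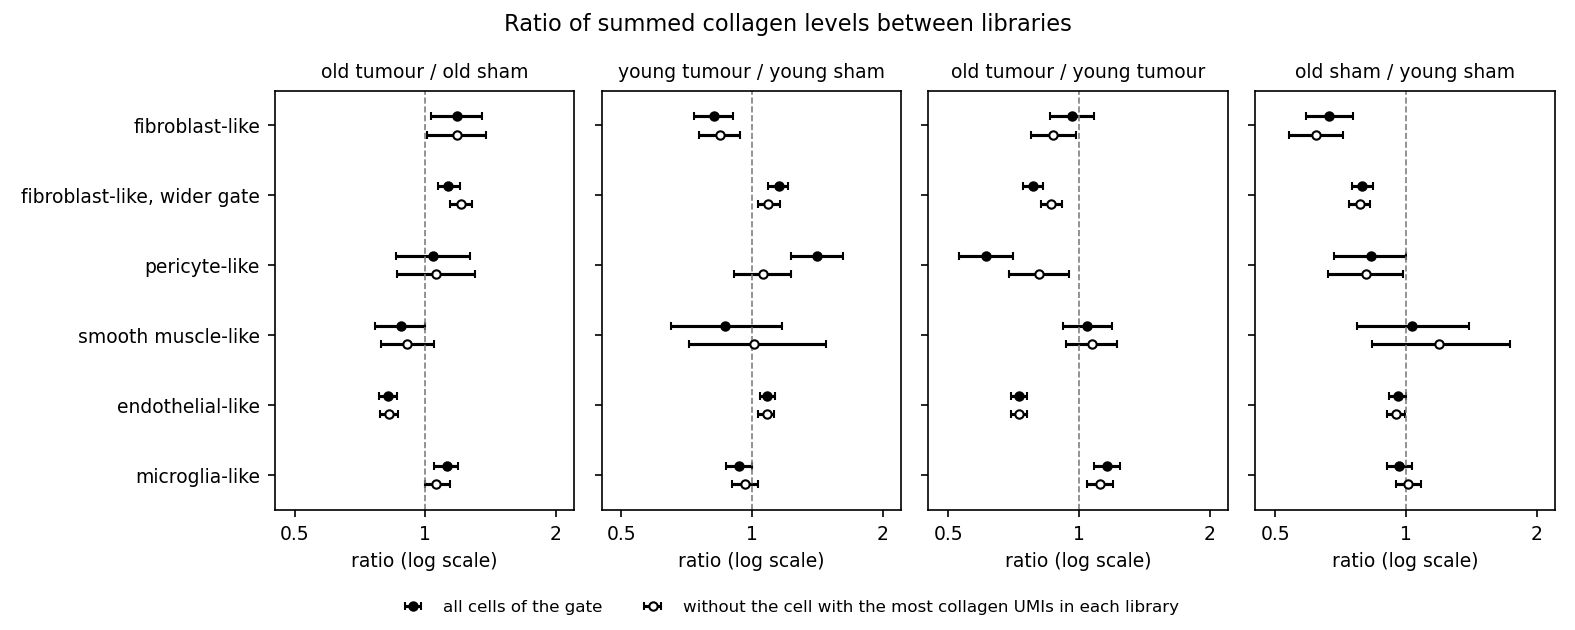
Ratio of the summed collagen CPM between 2 libraries (horizontal axes, log scale) for each gated type, with exact 95% counting intervals. Filled points use all cells and open points leave out, in each library, the cell with most collagen UMIs, where the ratio of pericyte-like cells for young tumour over young sham is 1.06 in place of 1.41.

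Fibroblast-like cells had the highest collagen level of all types, 5237 CPM in old tumour, 4447 in old sham, 5446 in young tumour and 6675 in young sham. They were few, with 33 cells in old tumour, 17 in old sham, 28 in young tumour and 34 in young sham. Fibrillar collagens made up 49.4% of their collagen UMIs in old tumour, 43.4% in old sham, 48.1% in young tumour and 52.0% in young sham. Col1a2 stood at 1028 CPM in old tumour, 797 in old sham, 1397 in young tumour and 1769 in young sham. Col1a1, the other type I chain, stood at 706 CPM in old tumour, 643 in old sham, 806 in young tumour and 1113 in young sham. For both, young sham was highest and old sham lowest. By a wider gate, chosen after seeing the data, young tumour was highest for both, with Col1a1 at 542 CPM in old tumour, 371 in old sham, 676 in young tumour and 648 in young sham. Its ratios of young tumour to young sham were 1.04 (0.899 to 1.21) for Col1a1 and 1.05 (0.940 to 1.18) for Col1a2. Both intervals included 1.

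Col3a1, the type III collagen of pliable tissue, stood at 615 CPM in old tumour, 349.6 in old sham, 286 in young tumour and 390.0 in young sham. In old tumour, 1 cell held 45 of the 88 Col3a1 UMIs and 18.2% of the 749 collagen UMIs. That cell had 1 Hmga2 UMI, under the minimum of 2 for Hmga2-expressing cells. Of the collagen VI chains, Col6a1 stood at 371 CPM in old tumour, 559 in old sham, 347 in young tumour and 593 in young sham. Col6a2 stood at 301 CPM in old tumour, 392 in old sham, 235 in young tumour and 463 in young sham. By the first gate both were lower in each tumour library than in the sham library of the same age. In young mice the ratios were 0.584 (0.385 to 0.868) for Col6a1 and 0.506 (0.304 to 0.812) for Col6a2. In old mice they were 0.662 (0.431 to 1.03) and 0.768 (0.466 to 1.28), and both intervals included 1. By the wider gate both were higher in young tumour than in young sham. The ratios were 1.28 (1.09 to 1.49) for Col6a1 and 1.23 (1.03 to 1.48) for Col6a2. For old tumour over old sham they were 0.958 (0.830 to 1.11) and 0.946 (0.807 to 1.11) by the wider gate. Col12a1, a FACIT collagen of fibril surfaces, stood at 357 CPM in old tumour, 545 in old sham, 408 in young tumour and 480.4 in young sham.

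Most cells with at least 3 fibroblast markers did not pass this gate: 131 of 164 in old tumour, 99 of 116 in old sham, 71 of 122 in young tumour and 107 of 141 in young sham were blocked by another list. In young tumour 28 of the 122 passed, and the rest had been set apart as Hmga2-expressing cells. No such cells were set apart in the other libraries. The astrocyte list blocked 111 cells in old tumour, 87 in old sham, 54 in young tumour and 88 in young sham. Its genes Gja1, Gjb6 and Slc4a4 also had UMIs in fibroblast-like cells, at 413 to 616, 196 to 377 and 20.4 to 139.8 CPM. In astrocyte-like cells they stood at 1784 to 1990, 584 to 623 and 1794 to 1962 CPM. Whether the fibroblast-like cells themselves expressed those 3 genes was not tested. A wider gate that ignored those 3 genes, chosen after these counts were seen, took 85 cells in old tumour, 55 in old sham, 59 in young tumour and 80 in young sham. Aqp4, the astrocyte water channel, stood at 1.18 CPM in old tumour, 1.63 in old sham, 0 in young tumour and 1.29 in young sham in them, against 953 to 1144 CPM in astrocyte-like cells. The 3 ignored genes stood higher in the wider set, at 672 to 967 (Gja1), 357 to 515 (Gjb6) and 157 to 278 CPM (Slc4a4). Cells of the wider set had a median of 3 astrocyte markers. Cells of the first gate had a median of at most 1 marker of any other list. The part of astrocyte RNA in the wider set was not tested. The median depth of the wider set was 8043 UMIs in old tumour, 7256 in old sham, 6633 in young tumour and 8150 in young sham, against 3271 UMIs in old tumour, 3372 in old sham, 3028 in young tumour and 4542 in young sham for the first gate, and whether doublets remained among them was not tested.

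By the wider gate the summed collagen level was 3873 CPM in old tumour, 3414 in old sham, 4941 in young tumour and 4307 in young sham. The direction of the tumour comparison in young mice depended on the gate. The summed ratio of young tumour to young sham was 0.816 (0.735 to 0.905) by the first gate and 1.15 (1.09 to 1.21) by the wider one. That of old tumour to old sham was 1.18 (1.03 to 1.35) and 1.13 (1.07 to 1.20). That of old sham to young sham was 0.666 (0.587 to 0.755) and 0.793 (0.750 to 0.838), lower by both gates. That of old tumour to young tumour was 0.962 (0.859 to 1.08) and 0.784 (0.742 to 0.828).

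By the first gate, 1 of 11 measured collagens was past 2-fold for old tumour over old sham (15.2% of all genes), 4 of 16 for young tumour over young sham (14.3%), 5 of 15 for old sham over young sham (14.8%) and 3 of 16 for old tumour over young tumour (11.5%). By the wider gate 6 of 22 were past it for old tumour over old sham (7.02% of all genes), 3 of 21 for young tumour over young sham (6.10%), 5 of 19 for old sham over young sham (8.36%) and 5 of 22 for old tumour over young tumour (6.68%). The median log2 ratio of measured collagens by the wider gate was 0.41 for old tumour over old sham, 0.25 for young tumour over young sham, -0.63 for old sham over young sham and -0.37 for old tumour over young tumour, beside -0.01 to 0.02 over all measured genes.

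By the wider gate, 2 members with at least 50 UMIs in these cells differed between tumour and sham at both ages. Both were past 2-fold in the same direction. The share of all measured genes past 2-fold at both ages is not given here, so whether 2 is many cannot be judged. Col13a1, a transmembrane collagen of cell adhesion sites, stood at 24.7 CPM in old tumour, 9.81 in old sham, 54.0 in young tumour and 14.2 in young sham. Its ratio was 2.52 for old tumour over old sham (0.985 to 7.64) and 3.80 for young tumour over young sham (1.78 to 8.62). Col18a1 stood at 49.5 CPM in old tumour, 13.1 in old sham, 42.3 in young tumour and 20.7 in young sham, with ratios of 3.78 (1.76 to 9.33) and 2.04 (0.983 to 4.28). Both were higher in tumour libraries, and in each 1 of the 2 intervals included 1. Col14a1, with fewer UMIs, was also past 2-fold at both ages, at 24.7 CPM in old tumour (21 UMIs), 3.27 in old sham (2), 32.9 in young tumour (14) and 15.5 in young sham (12). By the first gate Col13a1 had ratios of 1.58 and 4.21, and Col18a1 of 2.0 and 2.36.

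Between old and young, Col4a2 and Col4a5 were lower in old mice with and without tumour by the wider gate. The share of all measured genes past 2-fold in both of these comparisons is not given here either. Col4a2 stood at 29.5 CPM in old tumour, 21.2 in old sham, 63.4 in young tumour and 51.7 in young sham. Col4a5 stood at 18.8 CPM in old tumour, 9.81 in old sham, 39.9 in young tumour and 33.6 in young sham. The ratios of old sham to young sham were 0.411 (0.201 to 0.784) for Col4a2 and 0.292 (0.0981 to 0.724) for Col4a5, and those of old tumour to young tumour 0.465 (0.259 to 0.831) and 0.472 (0.223 to 0.994). By the first gate the ratios of old tumour to young tumour were 0.548 (0.234 to 1.26) for Col4a2 and 0.80 (0.343 to 1.89) for Col4a5, not past 2-fold. Of the smooth muscle list, Myh11, Cnn1 and Actg2 were at 0 in these cells. The levels of its other markers and its sum are not given here. The pericyte list summed to 318 CPM in old tumour, 356 in old sham, 909 in young tumour and 255 in young sham, highest in young tumour. The part of either list in the type IV levels was not tested.

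The 6 members with most UMIs by the wider gate were Col1a2, Col1a1, Col6a1, Col6a2, Col12a1 and Col3a1, the same 6 as by the first. By the wider gate, Col1a2 stood at 908 CPM in old tumour, 662 in old sham, 1153 in young tumour and 1096 in young sham, with a Col1a2 to Col1a1 ratio of 1.68 in old tumour, 1.78 in old sham, 1.70 in young tumour and 1.69 in young sham. Col6a1 stood at 528 CPM in old tumour, 551 in old sham, 674 in young tumour and 528 in young sham. Of other matrix genes, Lum, a proteoglycan that spaces fibrils, stood at 200.3 CPM in old tumour, 58.8 in old sham, 284 in young tumour and 97.0 in young sham. Lama1, a laminin chain, stood at 23.6 CPM in old tumour, 8.17 in old sham, 54.0 in young tumour and 16.8 in young sham. Lum and Lama1 were past 2-fold higher in tumour than in sham at both ages, and both are markers that the gate used.

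Microglia-like cells, the resident macrophages of the brain, numbered 2411 in old tumour, 2510 in old sham, 2981 in young tumour and 3684 in young sham. Their summed collagen level was low, 158 CPM in old tumour, 141 in old sham, 137 in young tumour and 147 in young sham. Most of it came from 3 members. Col27a1 (chr4:63214004-63334991, plus strand) stood at 96.4 CPM in old tumour, 86.9 in old sham, 90.1 in young tumour and 94.4 in young sham. Col15a1, a multiplexin, stood at 21.8 CPM in old tumour, 21.7 in old sham, 20.4 in young tumour and 22.8 in young sham. Ratios over the 4 comparisons ran from 0.920 to 1.11 for Col27a1 and from 0.895 to 1.07 for Col15a1.

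Col6a3 (chr1:90765923-90843971, minus strand), a chain of collagen VI, was the exception. It stood at 18.9 CPM in old tumour (223 UMIs), 22.7 in old sham (290), 5.39 in young tumour (58) and 6.58 in young sham (89). Both old libraries lay above both young ones with no overlap of their intervals. The ratio was 3.51 for old tumour over young tumour (2.62 to 4.77) and 3.46 for old sham over young sham (2.72 to 4.43). Leaving out the 5 cells with most Col6a3 UMIs per library gave 3.91 and 3.72.

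**Figure D5:**
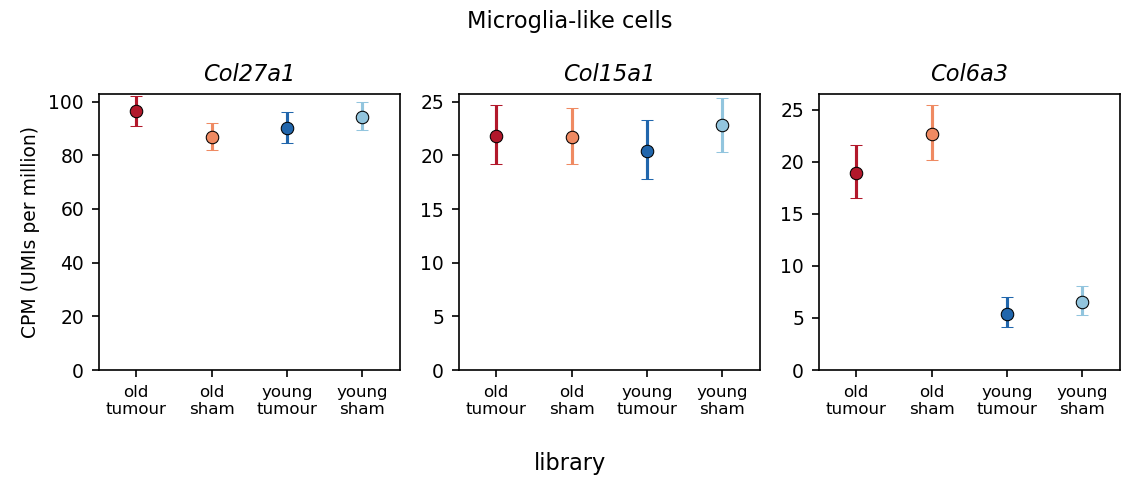
Level in CPM (vertical axis) of 3 collagens in microglia-like cells of each library, as points with exact 95% counting intervals. Col27a1 and Col15a1 lie at like levels in all libraries, while Col6a3 lies at 18.9 and 22.7 CPM in the old ones and at 5.39 and 6.58 CPM in the young ones.

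In microglia-like cells thinned to 1000 UMIs, Col6a3 was seen in 2.22% of old tumour, 2.62% of old sham, 0.494% of young tumour and 0.833% of young sham cells. Unthinned shares were 7.76% in old tumour, 10.2% in old sham, 1.74% in young tumour and 2.14% in young sham, at median depths of 4656 UMIs in old tumour, 4940 in old sham, 3176 in young tumour and 3602 in young sham. Astrocyte-like cells, taken as a type that should lack it, had the gene in 0 thinned cells of every library. Col6a3 also had UMIs in oligodendrocyte-like cells, a type named here after its values were seen: 6.65 CPM in old tumour, 6.60 in old sham, 1.70 in young tumour and 2.55 in young sham. The ratio there was 3.91 for old tumour over young tumour (2.15 to 7.71) and 2.59 for old sham over young sham (1.53 to 4.65). Endothelial-like, border macrophage-like and monocyte-like cells held 0 UMIs of Col6a3 in every library. Beside the microglial result, the oligodendrocyte list summed to 70.5 CPM in old tumour, 85.4 in old sham, 61.6 in young tumour and 55.3 in young sham in microglia-like cells, with no marker at 0, and its part in the result was not tested.

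By count, 3 of 10 measured collagens in microglia-like cells were past 2-fold for old tumour over old sham (4.73% of all genes), 5 of 14 for young tumour over young sham (4.91%), 6 of 11 for old sham over young sham (7.73%) and 3 of 11 for old tumour over young tumour (5.45%). Several of these calls rest on single cells. The 3 for old tumour over old sham were Col1a2, Col6a1 and Col12a1, and 1 cell of old tumour held 33 of the 38 Col1a2 UMIs, 17 of the 19 of Col6a1 and 15 of the 18 of Col12a1. In young sham, 1 cell held 21 of the 34 UMIs of Col1a2, 21 of the 25 of Col1a1 and 21 of the 25 of Col8a1. Col3a1 had 28 UMIs in microglia-like cells of young tumour, the library in which Hmga2-expressing cells held 6783, against 1 in old tumour, 2 in old sham and 16 in young sham. Whether released RNA gave these UMIs was not tested.

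Of the other matrix genes in microglia-like cells, Fn1, which encodes fibronectin, was past 2-fold between tumour and sham at both ages. It stood at 11.6 CPM in old tumour, 4.47 in old sham, 11.8 in young tumour and 4.65 in young sham, with ratios of 2.59 (1.89 to 3.59) and 2.54 (1.86 to 3.49). The border macrophage list, none of whose markers was at 0, summed to 135 CPM in old tumour, 110.2 in old sham, 279 in young tumour and 167 in young sham in these cells, and its part in the Fn1 level was not tested. The median log2 ratio of 14 measured folding genes lay between -0.15 and 0.10 in the 4 comparisons.

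Hmga2-expressing cells can be described for young tumour only. Their 431 cells had a median depth of 25774 UMIs, against 3773 for all cells of that library. Their collagen level was 1648 CPM (1626 to 1671), between that of fibroblast-like cells (5446 CPM) and that of endothelial-like cells (956 CPM) of the same library. Fibrillar collagens made up 42.9% of their collagen UMIs, multiplexins 21.2%, collagen VI 14.7% and collagen IV 14.7%. The labels do not say which cells descend from the injected line. Of the 431 cells, 380 passed no other gate and 20 passed the microglia gate. The fibroblast marker list summed to 309 CPM in them, with 1 of its markers, Lama1, at 0, against 8271 CPM in fibroblast-like cells of the same library.

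The leading member was Col3a1, with 6783 UMIs (523 CPM) and at least 1 UMI in 98.4% of the cells. Thinned to 1000 UMIs, 40.6% of the cells had it (35.9 to 45.4%), against 0.0838% of oligodendrocyte-like cells of the same library. Col18a1 followed at 349 CPM, in 94.4% of cells, then Col6a1 at 167, Col4a1 at 158, Col8a1 at 79.5 and Col4a2 at 75.4 CPM. Col27a1 stood at 72.1, Col6a2 at 68.0, Col5a1 at 61.3 and Col5a2 at 40.7 CPM, the last 2 encoding chains of type V, which nucleates fibrils.

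The type I chains were almost absent from these cells. Col1a1 stood at 4.01 CPM (52 UMIs) and Col1a2 at 1.93 CPM (25 UMIs), a Col1a2 to Col1a1 ratio of 0.481 (0.286 to 0.789). In fibroblast-like cells of young tumour, Col1a1 stood at 806, Col1a2 at 1397 and Col3a1 at 286 CPM, so that Col3a1 led type I in the one type and trailed it in the other. The FACIT collagen Col12a1 stood at 4.24 CPM, Col15a1 at 0.154 and Col14a1 at 0. The ratio of Col6a1 to Col6a2 was 2.46 (2.27 to 2.66), against 1.43 (1.19 to 1.72) in fibroblast-like cells of the wider gate in the same library.

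For 4 members these cells held most of the UMIs of the whole series: 83.2% for Col3a1, 74.7% for Col18a1, 72.8% for Col5a1 and 62.9% for Col6a4, which had 62 UMIs in all. Of the UMIs of all genes, they held 20.6% in young tumour and at most 0.00854% in any other library. Their share of all UMIs of the series is not given here. The other cells held 1372 of 8155 Col3a1 UMIs, 1528 of 6046 Col18a1 UMIs and 297 of 1091 Col5a1 UMIs. Of the genes that make collagen, Serpinh1, the collagen chaperone HSP47, stood at 406 CPM in Hmga2-expressing cells, against 428 in fibroblast-like, 168 in endothelial-like and 3.72 in microglia-like cells of young tumour. Plod2, a lysyl hydroxylase, stood at 89.8 CPM, against 16.1 in endothelial-like and 0.651 in microglia-like cells. In fibroblast-like cells of young tumour Plod2 rested on 3 UMIs, Lox, which cross-links fibrils, on 3 and its relative Loxl3 on 1, too few to compare. These genes were picked from the lists after their values were seen.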

How the data were processed

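Single cells of 4 libraries were counted on the 10x Genomics 3' platform (version 3 chemistry, per the labels' protocols). The authors deposited whole-number UMI counts per gene and barcode, not normalized. Per the submitters' processing notes, Cell Ranger 3.0.2, Seurat 2.3.4 and mm10 were used, while the file headers name Cell Ranger 6.1.0. No deposited cell annotation was used, so cell type names are rebuilt and may differ from the study's.

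Barcodes entered with a minimum of 500 UMIs and 200 genes, and with no more than 20% of UMIs from mitochondrial genes (Python 3.11.15, numpy 2.4.6, scipy 1.17.1, pandas 2.3.3). Doublets were removed by Scrublet score (scanpy 1.11.5), taking the highest scores at 0.8% per 1000 barcodes. A cell was gated by at least 3 of 8 markers of 1 of 19 lists, after cells with at least 2 Hmga2 UMIs were set apart. Collagen UMIs were summed per cell type and library and scaled to CPM. A gene was measured with at least 20 UMIs over both libraries and called past 2-fold, with 0 set to 3 UMIs. Levels and shares have exact 95% Poisson or binomial intervals, and ratios have conditional ones. These cover counting error only. Ratios and their intervals were tried on simulated counts at the rates of endothelial-like cells of young sham, for genes with many UMIs. The cell filter, doublet step, gates and genes with few UMIs were not tried this way.

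Named were the 6 members with most UMIs per cell type, every member with at least 50 UMIs past 2-fold in the same direction in both comparisons of tumour or of age, and at most 4 other genes per cell type and comparison. Members outside this rule were named after their values were seen. Members and lists were chosen with earlier results of these data known. Alternatives were the doublet step, marker and Hmga2 minimums, cell filter, scaling, UMI minimum and fold. The wider fibroblast gate and the values without single cells, without the 5 top cells and for Hmga2 cells passing no other gate were chosen after seeing the data. Gene positions are from GENCODE M21 (GRCm38) and promoters from RefSeq (GRCm38.p6).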

Additional observations from a re-analysis of the deposited data

How the results depend on the processing

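No paired analysis was possible because each group has 1 library. For the same reason no library could be left out. Of the summed collagen ratios under other settings, 103 moved by less than their counting interval and 13 by more. On the log2 scale, fibroblast-like cells gave -0.48 with the mean of each cell's CPM and 0.20 with the wider gate for young tumour over young sham (-0.29 as reported). They gave -0.79 without doublet removal and -0.34 with the wider gate for old sham over young sham (-0.59), and -0.22 and -0.35 for old tumour over young tumour (-0.06). Pericyte-like cells gave 0.13 with the mean of each cell's CPM and 0.08 without the top cell for young tumour over young sham (0.50). For old tumour over young tumour (-0.71) they gave -1.10 without doublet removal, -0.50 with the mean of each cell's CPM and -0.31 without the top cell. Endothelial-like cells gave -0.54 for old tumour over young tumour (-0.46) and -0.14 for old sham over young sham (-0.06) with the mean of each cell's CPM. The cause of these shifts was not tested.

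The collagen percent under the stricter cell filter was 0.0446 in old tumour, 0.0436 in old sham, 0.0642 in young tumour and 0.0478 in young sham. Without doublet removal it was 0.0686 in young tumour and 0.0464 in old sham, and without Hmga2-expressing cells 0.0411 in young tumour. The share of young tumour collagen in Hmga2-expressing cells was 52.0% at a minimum of 1 Hmga2 UMI, 49.0% at 5, 48.3% without doublet removal, 56.1% under the stricter filter and 43.5% for cells passing no other gate. Their level was 1575, 1540 and 1610 CPM at a minimum of 1 UMI, without doublet removal and for cells passing no other gate. Counts of members past 2-fold moved by over 1.5 times in 55 of their settings and stayed within it in 93, and single named members moved in 10 and did not in 763. Depth limits members with few UMIs, and 1 library per group leaves differences between mice unmeasured.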

Other observations

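Collagens were also found outside the vascular, meningeal and microglial cells, in types named here after their values were seen. Col9a3, a chain of the FACIT collagen IX of cartilage, had 9882 of its 19754 UMIs in choroid plexus-like cells, at 523 CPM in old tumour, 566 in old sham, 636 in young tumour and 509 in young sham. Col8a1 stood there at 124 CPM in old tumour, 123 in old sham, 155 in young tumour and 77.0 in young sham, with a ratio of 2.01 (1.69 to 2.39) for young tumour over young sham, and 1.84 without the 5 cells with most Col8a1 UMIs. Col6a5, a collagen VI chain, stood at 60.3 CPM in old tumour, 67.1 in old sham, 48.9 in young tumour and 80.3 in young sham in ependyma-like cells. Without the 5 cells with most Col6a5 UMIs, the ratio of old tumour to old sham turned round, at 1.49 against 0.898 with them.

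Col2a1, the fibrillar collagen of cartilage, had 81.2% of its UMIs in oligodendrocyte-like cells. It stood there at 8.71 CPM in old tumour, 9.41 in old sham, 3.14 in young tumour and 2.85 in young sham. Both old libraries were higher, with ratios of 2.78 (1.76 to 4.55) for old tumour over young tumour and 3.30 (2.03 to 5.67) for old sham over young sham. Without the 5 cells with most Col2a1 UMIs the ratios were 3.49 and 5.69. Col25a1, a transmembrane collagen of neurons, stood at 27.0 CPM in old tumour, 31.9 in old sham, 42.4 in young tumour and 54.9 in young sham in neuron-like cells. These levels rest on few cells: without the 5 cells with most Col25a1 UMIs, the ratio of old tumour to old sham was 1.35 against 0.848 with them, and that of old sham to young sham 0.151 against 0.581.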
